A study of Mus musculus with 6 samples.

Results

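The comparison of 12 h with 2 h of TGFβ1 rested on 4 of the 6 libraries of the series, 2 biological replicates at each time, and on the 11080 of 21240 counted genes that had at least 2 CPM (counts scaled to the size of the library) in at least 2 of the 6 libraries. NMuMG is an established epithelial cell line of mouse mammary gland. Its cells were kept without serum and insulin for 6 h and then received 5 ng/ml of TGFβ1, harvested after 2 h in one group and after 12 h in the other, while control cells received vehicle and were harvested after 2 h. All 3 groups were thus without serum, for 8 h in the vehicle and 2 h groups and for 18 h in the 12 h group. Because no vehicle library was taken at 12 h, the 10 h more of TGFβ1 and the 10 h more without serum cannot be told apart. The 2 vehicle libraries served to place each gene at 2 h and 12 h against untreated cells. The study calls the replicates biological, and all came from this 1 line.

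TGFβ binds a pair of receptor kinases that phosphorylate Smad2 and Smad3, which then enter the nucleus with Smad4 and regulate genes together with AP-1 and other factors. In epithelial cells the pathway is known for arresting the cell cycle and for the epithelial to mesenchymal transition, in which cells loosen their junctions, rebuild their actin cytoskeleton and deposit matrix. Genes reached directly by Smads respond early, and feedback inhibitors such as Smad7 are among them, whereas matrix and cytoskeletal genes are known as later parts of the response.

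Depth was 14705886 to 23786993 counts per library, scaling factors of the trimmed mean of M values (TMM) lay between 0.961 and 1.07, and Malat1 took 2.64% to 5.34% of the counts. Of 8 epithelial markers 6 passed the filter (Cdh1, Krt7, Krt8, Krt18, Krt19 and Muc1), while Epcam had 2 to 16 counts and Cldn7 0 to 7 counts per library. Of the 6, 1 was called higher at 12 h than at 2 h (Krt18, log2 fold change 1.32) and 2 lower (Krt19, -1.92, and Muc1, -2.95). Of the markers of other cells, 2 of 8 for leukocytes (Cd14 and Cd68), 1 of 8 for endothelium, 1 of 8 for fibroblasts and 0 of 6 for adipocytes passed it, and none of these 4 was called between 2 h and 12 h. Below the filter, the endothelial marker Cdh5 had 6 and 5 counts at 2 h and 39 and 36 at 12 h, and the fibroblast marker Pdgfrb 2 and 3 counts at 2 h and 22 and 26 at 12 h, while Pecam1 and Kdr had at most 2 counts and Thy1 and Lum at most 1 in any library. The part of these markers in the results was not tested. One difference between replicates touches several results. Replicate 2 held more transcript of proliferation genes than replicate 1 with vehicle and at 2 h, the median ratio over 53 mitosis genes being 2.05 and 1.83, against 1.13 at 12 h and 1.00, 1.00 and 1.02 over all tested genes. The labels do not say which cultures share a replicate number, and for many of the results counts without single libraries are given beside them.

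More genes were called between 2 h and 12 h than in the first 2 h. A gene was called at an adjusted p under 0.05 by edgeR's quasi-likelihood test and an absolute log2 fold change (log2FC) above 1. At 12 h against 2 h, 499 genes were called higher, 4.5% of those tested, and 1094 were called lower, 9.87%. At 2 h against vehicle, 469 genes had been called higher (4.23%) and 223 lower (2.01%). In all 1593 called genes both 12 h libraries lay on the same side of both 2 h libraries. The median log2FC over all tested genes was 0.01. Functions are described below by 53 gene lists, of which 1266 genes were tested and 395 were below the filter. The calls of every list are to be read against 4.5% higher and 9.87% lower over all tested genes. Where a list has 0 calls in a direction, DESeq2 and limma-voom also called 0 unless a count is given.

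Each gene was placed by its calls in the 2 contrasts. Of the genes called higher at 2 h, 81 went on rising (0.731% of tested genes), 46 rose and faded (0.415%) and 342 were not called between 2 h and 12 h. Of the genes called lower at 2 h, 44 went on falling (0.397%), 32 fell and came back (0.289%) and 147 were not called afterwards. The largest classes held genes not called in the first 2 h, of which 386 rose (3.48%) and 1004 fell (9.06%). Not being called at 2 h is not the same as being level, but 228 of the 386 late-rising and 741 of the 1004 late-falling genes had an absolute log2FC under 0.5 at 2 h against vehicle. At 12 h, 279 of the late-rising genes were called above vehicle and 885 of the late-falling genes below it. Both contrasts use the 2 h libraries, with opposite sign, so these class sizes describe the time course and test no relation between its parts. Several class sizes moved with single libraries. Without replicate 1 at 2 h, 92 genes rose and faded, 75 went on falling and 74 fell and came back. Without replicates 1 and 2 of the vehicle group, 16 and 21 went on falling and 14 and 13 fell and came back. Without replicates 1 and 2 at 12 h, 49 and 45 went on rising, 16 and 18 went on falling, 15 and 24 fell and came back, 267 and 246 rose late, and 331 and 315 genes in all were called higher.

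**Figure D1:**
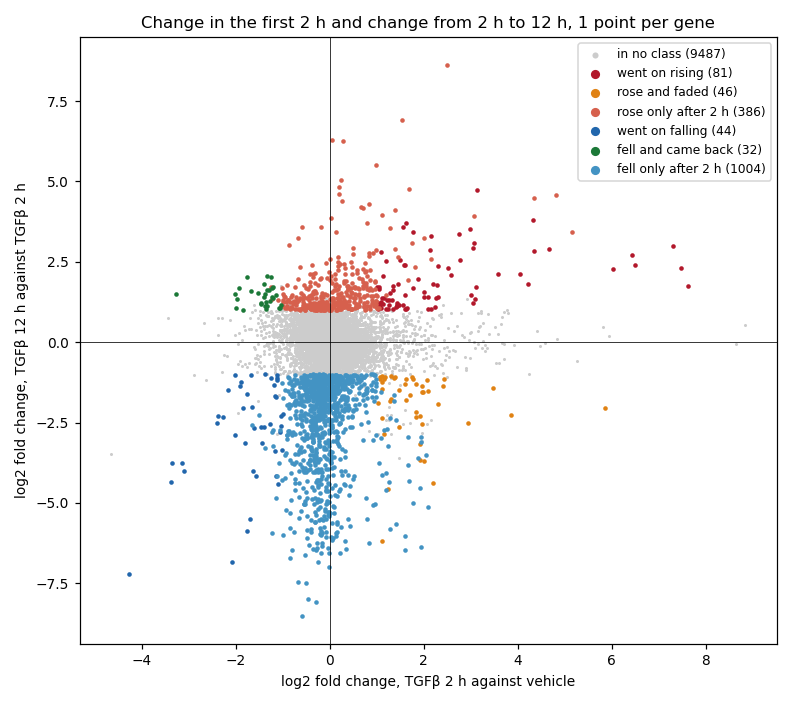
Each point is 1 of the 11080 tested genes, with the log2 fold change of TGFβ 2 h against vehicle on the x axis and of TGFβ 12 h against 2 h on the y axis, coloured by timing class. The late-falling genes (1004) form a column below the centre that reaches a log2FC under -7.5, and the genes that went on rising (81) fill the upper right.

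The genes that went on rising included secreted, matrix and signaling genes. Thbs1 (Entrez 21825, chr2:117937612-117952869 in NCBIM37, the Ensembl name of the mm9 build), thrombospondin 1, a matrix protein known to activate latent TGFβ, had 77.1 and 52.46 CPM with vehicle, 272 and 125 CPM after 2 h and 2691 and 2502 CPM after 12 h. Its 2 h replicates lay further apart than those at 12 h (log2FC 3.71, SE 0.39, adjusted p = 0.00103). Col7a1, the collagen of anchoring fibrils, had 4.95 and 5.16 CPM with vehicle, 11.49 and 23.1 CPM after 2 h and 154 and 215 CPM after 12 h, a rise of 3.42 on the log2 scale after 2 h. Other genes of this class were Ctsw, a cysteine protease, with 4.05 and 7.37 CPM at 2 h and 80.46 and 78.4 CPM at 12 h, and Aldh1l1, an enzyme of folate metabolism, with 1.72 and 2.67 CPM at 2 h and 24.8 and 27.9 CPM at 12 h.

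**Figure D2:**
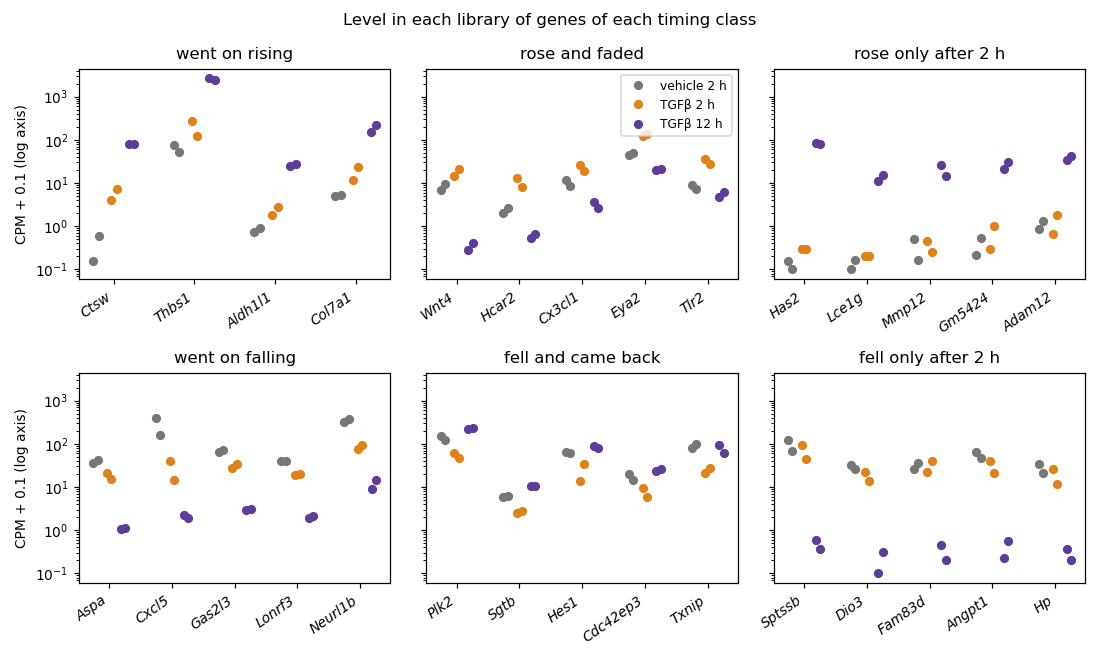
Level of 4 or 5 genes of each of 6 timing classes, in CPM plus 0.1 on a log axis, with 1 point per library and 2 libraries each for vehicle, TGFβ 2 h and TGFβ 12 h. In every gene shown both 12 h points lie outside the range of the 2 h points, which the choice of genes required. In the 5 late-rising genes all vehicle and 2 h points lie at the bottom, with Has2 reaching 83.2 and 82.2 CPM at 12 h.

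Targets of YAP and TAZ, the co-activators that read cell tension and are known to respond to matrix stiffness, were called in the upward direction. Of 14 tested targets 4 were called higher at 12 h than at 2 h (28.6%, against 4.5% of all tested genes) and 0 lower (1 at an unadjusted p under 0.05), with a median log2FC of 0.67. Ctgf, a matricellular growth factor, had 27.03 and 14.7 CPM with vehicle, 207 and 143 CPM after 2 h and 1579 and 1359.9 CPM after 12 h, so that it rose by about the same log2 amount in both steps (3.06 and 3.07, SE of the latter 0.31). Nt5e, an ectonucleotidase also known as CD73, went from 30.02 and 28.3 CPM to 268 and 312 CPM (log2FC 3.31, SE 0.13, adjusted p = 9.07e-05). Cyr61, related to Ctgf, had 125 and 117 CPM at 2 h and 247 and 281 CPM at 12 h, a log2FC of 1.13. Ankrd1 differed from these 3 in timing. It had 117 and 117 CPM with vehicle, 134 and 131 CPM after 2 h and 735 and 759 CPM after 12 h, with a log2FC of 0.18 in the first step and 2.50 in the second.

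Jag1, a ligand of Notch receptors, had 63.2 and 60.2 CPM with vehicle, 426 and 314 CPM after 2 h and 1598 and 1522 CPM after 12 h, with a second step of 2.08 on the log2 scale. In the same pathway Notch1 went the other way in both steps, from 234 and 249 CPM with vehicle through 111 and 125 CPM to 23.97 and 24.4 CPM (log2FC -2.29, SE 0.11, adjusted p = 0.000131). Of 10 tested Notch pathway genes 4 were called higher (40%, Jag1, Notch4, Hes1 and, chosen after its values were seen, Dll1) and 2 lower (Notch1 and Hey1), and 2 were called higher with either 12 h library left out. Plxna4, a semaphorin co-receptor, rose from 11.1 and 16.9 CPM at 2 h to 105 and 100.3 CPM at 12 h, and the interleukin Il11 from 0.607 and 0.707 CPM to 7.41 and 6.22 CPM. Cldn4, a tight junction claudin, and Pkp1, a desmosomal plaque protein, also rose in both steps, with a second log2FC of 1.76 and 1.96. They were the 2 of 18 tested junction genes called higher at 12 h than at 2 h, beside Ppl and Tjp3 called lower (log2FC -2.01 and -1.59), and the median log2FC of these genes was -0.12. Cdh1, E-cadherin, had 609 and 452 CPM at 2 h and 407 and 338 CPM at 12 h (log2FC -0.51, adjusted p = 0.0661) and was not called.

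Among called genes with a mean of at least 10 CPM at 12 h, the largest rise began after 2 h. Has2 (15117, chr15:56497182-56526094), the main hyaluronan synthase of mesenchymal cells, had 1 and 0 counts with vehicle, 4 and 4 counts at 2 h and 1909 and 1601 counts at 12 h. In CPM this was 0.202 and 0.202 CPM at 2 h and 83.2 and 82.2 CPM at 12 h, a 396-fold difference (log2FC 8.63, SE 0.25, adjusted p = 3.71e-05). At 2 h its few counts did not pass the test against vehicle (adjusted p = 0.112). Of the other hyaluronan genes tested, Hmmr and Cemip were called lower at 12 h (log2FC -5.59 and -2.14). Cemip is known for degrading hyaluronan, and Hmmr, a hyaluronan receptor by name, is also a protein of the mitotic spindle. Lce1g, a gene of the cornified envelope, had at most 3 counts in each 2 h library and 11.1 and 14.9 CPM at 12 h, at least 85.8-fold higher against 3 counts per library.

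Several proteases that act on matrix also started late. Among 23 tested matrix proteases, plasminogen system genes and inhibitors, 9 were called higher at 12 h than at 2 h (39.1%) and 2 lower, with 5 of the 9 not called in the first 2 h and 4 that went on rising. Mmp12, macrophage elastase, had 0.354 and 0.151 CPM at 2 h and 25.8 and 14.4 CPM at 12 h (log2FC 6.28, SE 0.59, adjusted p = 0.000734). Mmp10, stromelysin 2, had 1.01 and 0.757 CPM at 2 h and 25.6 and 24.97 CPM at 12 h, and its 2 replicates were closer to each other than those of Mmp12 (log2FC 4.83, SE 0.22). Adam12, a membrane-bound metalloprotease, had 0.557 and 1.77 CPM at 2 h and 33.8 and 43.3 CPM at 12 h. In each of these 3 genes both 2 h libraries lay close to the vehicle libraries, and both 12 h libraries far above. With either 12 h library left out, 4 genes of this list were called higher. Genes seen above 2 CPM at 12 h alone then no longer passed the filter.

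Matrix and adhesion genes had both timings. Of 24 matrix glycoproteins and proteoglycans 8 were called higher (33.3%) and 2 lower, 5 of the 8 going on from a rise at 2 h and 3 starting later. Tnc, tenascin C (21923, chr4:63620819-63681760), had 9.13 and 4.27 CPM with vehicle, 12.2 and 9.13 CPM after 2 h and 232 and 164 CPM after 12 h, with no call at 2 h (adjusted p = 0.278) and a log2FC of 4.21 (SE 0.35) after it. Fn1, fibronectin, had 99.7 and 79.6 CPM with vehicle, 170.2 and 183 CPM after 2 h and 1469 and 1097 CPM after 12 h. Its first step had an adjusted p of 0.0147 but a log2FC of 0.98, just inside the fold threshold, so that its place among the late-rising genes rests on that threshold. Of the fibronectin receptors, Itgb1 had 704 and 588 CPM at 2 h and 2066 and 1966 CPM at 12 h and Itga5 20.1 and 31.3 CPM at 2 h and 77.7 and 82.3 CPM at 12 h, a log2FC of 1.64 and 1.64. Together with Itgb3 they were 3 of 12 tested integrin subunits called higher (25%), and Itga7, a laminin-binding subunit, was called lower (-2.57). Among 20 tested collagens and collagen-modifying enzymes 3 were called higher (15%) and 2 lower (10%, near the share of all tested genes). The 2 that fell were Col6a1 and Col6a2, chains of the beaded-filament collagen VI, with 299 and 225 CPM at 2 h and 47.1 and 66.9 CPM at 12 h for the former and 52.8 and 44.8 CPM at 2 h and 3.84 and 5.96 CPM at 12 h for the latter. Plod2, a lysyl hydroxylase that prepares collagen for crosslinking, had 93.49 and 71.9 CPM at 2 h and 284 and 253 CPM at 12 h, whereas Col1a1 had 4.76 and 6.81 CPM at 2 h and 10.98 and 10.8 CPM at 12 h and missed the fold threshold (log2FC 0.91, adjusted p = 0.0499).

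Part of the actin genes rose as well. Of 27 actin and contractile genes 8 were called higher (29.6%) and 2 lower. Actb, cytoplasmic β-actin, had 3458 and 4457 CPM at 2 h and 9655 and 9355 CPM at 12 h (log2FC 1.26, SE 0.15, adjusted p = 0.00141). Tpm4, a tropomyosin, had 328 and 310.3 CPM at 2 h and 1018 and 935 CPM at 12 h (log2FC 1.61), and Tpm1 had 787 and 760.3 CPM at 2 h and 1017 and 1095 CPM at 12 h, a log2FC of 0.45 that was not called. Mylk, myosin light chain kinase, and Lima1, an actin crosslinker, were the 2 called lower (log2FC -1.56 and -1.53). Without replicate 1 of the 2 h group, 5 of the list were called higher in place of 8. Among genes used to mark mesenchymal cells, Ncam1 rose from 197 and 205 CPM to 699.7 and 751 CPM, Cdh2 had 136 and 140.5 CPM at 2 h and 194 and 219 CPM at 12 h and Vim 2350.1 and 3024 CPM at 2 h and 2941 and 3223 CPM at 12 h, neither of the latter called (log2FC 0.58 and 0.20).

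Transcription factors of the epithelial to mesenchymal transition differed in timing. Snai1 had 0.118 and 0.191 CPM with vehicle, 9.16 and 10.4 CPM after 2 h and 10.55 and 11.9 CPM after 12 h. It was called higher in the first 2 h, with a log2FC of 5.94, and both 12 h libraries lay above both 2 h libraries by a difference that was not called (log2FC 0.20, adjusted p = 0.45). Zeb2 had 13.49 and 12.9 CPM with vehicle, 23.1 and 20.4 CPM after 2 h and 56.6 and 58.51 CPM after 12 h, a log2FC of 0.72 then 1.40 (SE 0.12, adjusted p = 0.000553), and Zeb1 moved alike with 0.93 in the second step, under the fold threshold. Snai2 stayed between 3.08 and 3.40 CPM in the 4 treated libraries. Twist2 was called lower at 12 h with few counts (log2FC -1.08, adjusted p = 0.0386), a call lost with DESeq2, in the fit of the 2 groups alone and without any 1 of 5 libraries.

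Epithelial transcription and splicing factors fell after 2 h in 5 of 8 tested genes (62.5%, against 9.87% of all tested genes), with a median log2FC of -1.21. Ehf, an epithelial ETS factor, had 134 and 84.9 CPM at 2 h and 16.1 and 11.04 CPM at 12 h (log2FC -3.01, SE 0.28, adjusted p = 0.000692). Elf3, of the same family, had 32.9 and 32.4 CPM at 2 h and 11.2 and 14.02 CPM at 12 h. The splicing regulator Rbm47 had 173 and 135 CPM with vehicle, 88.1 and 66.2 CPM after 2 h and 24.45 and 21.4 CPM after 12 h. Rbm47 had thus fallen by 2 h (log2FC -0.9996, adjusted p = 0.0153). Its place among the late-falling genes rests on the fold threshold. Esrp2, a splicing factor of epithelia, was not called (log2FC -0.24). With either 12 h library left out, 2 of the list were called lower. No member was higher at an unadjusted p under 0.05. Of 8 keratins 2 were called higher and 2 lower, with 1 higher without either 12 h library and 1 lower without either 2 h library. Krt18 rose from 2489 and 2471 CPM to 6132 and 6249 CPM and Krt8 had 1683 and 1765 CPM at 2 h and 3367 and 3298 CPM at 12 h, while Krt19 fell from 1663 and 1791 CPM to 420.4 and 489.8 CPM (log2FC 1.32, 0.95 and -1.92). The Krt8 change was just under the fold threshold.

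Few AP-1 factors were called after 2 h. They are leucine zipper proteins made within minutes to hours of a stimulus, and 6 of 10 tested had been called higher at 2 h. From 2 h to 12 h, 1 of the 10 was called higher (10%, against 4.5% of all tested genes) and 1 lower (10%, against 9.87%). Their median log2FC was 0.21, while the median CPM of the list was 60.8 and 68.9 at 2 h and 38.1 and 35.1 at 12 h. The gene called higher, Fosb, did not pass the filter without either 12 h library or with at least 10 counts asked for in every library, and without replicate 1 at 2 h, 2 were called higher and 2 lower. The median log2FC was 0.043 without replicate 2 at 12 h. At an adjusted p under 0.05 and any fold, 3 were higher and 3 lower. Junb had 59.3 and 67.7 CPM with vehicle, 736 and 713 CPM after 2 h and 1093 and 918 CPM after 12 h, and the change after 2 h was 0.47 on the log2 scale (SE 0.13, adjusted p = 0.029), under the fold threshold. Fosl2 had 482 and 382 CPM at 2 h and 334 and 375 CPM at 12 h and Fos 17.2 and 18.1 CPM at 2 h and 21.7 and 23.1 CPM at 12 h. Jun had 11.8 and 18.49 CPM with vehicle, 70.3 and 76.8 CPM after 2 h and 44.6 and 40.1 CPM after 12 h, a log2FC of -0.79 after 2 h with an adjusted p of 0.0228 and under the fold threshold. Jdp2, a repressor within the family, faded from 87.4 and 71.96 CPM to 25.9 and 30.2 CPM (log2FC -1.51, SE 0.14, adjusted p = 0.000765), and Fosb, at a few CPM, was called higher in the second step and not in the first (log2FC 2.35). The AP-1 sequence TGANTCA, searched in promoter windows described with the mitosis genes, was present in 4.83% of all windows, in 10.3% of the 58 windows of genes that went on rising, in 12.5% of the 40 of genes that rose and faded and in 8.28% of the 302 of late-rising genes. The falling classes had it in 9.09% of the 33 windows of genes that went on falling and in 7.74% of the 788 of late-falling genes, and genes that fell and came back in 3.85% of 26.

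Of 10 tested inhibitors of TGFβ signaling, 8 had been called higher at 2 h, and after 2 h 0 were called higher and 1 lower. Of these 10, 2 were higher and 3 lower at an unadjusted p under 0.05 in edgeR, and 0 were higher and 3 lower at an adjusted p under 0.05. Smad7, which blocks the receptor, had 38.9 and 25.9 CPM with vehicle, 169 and 103 CPM after 2 h and 211 and 196 CPM after 12 h (log2FC 0.58 after 2 h, adjusted p = 0.136). Skil, a Smad co-repressor, had 659 and 418 CPM at 2 h and 654 and 513 CPM at 12 h, and Pmepa1 1049.8 and 703 CPM at 2 h and 1127 and 952 CPM at 12 h, with 2 h replicates further apart than those at 12 h. Smad6, known for restraining the BMP branch, was the 1 that faded, with 19.49 and 18.1 CPM with vehicle, 40.95 and 38.4 CPM after 2 h and 16.8 and 18.7 CPM after 12 h (log2FC -1.16, SE 0.13, adjusted p = 0.00117). Its 12 h libraries reached the vehicle range. Of 11 tested receptors and signal-carrying Smads 0 were called in either direction at 12 h against 2 h, with 3 higher and 3 lower at an unadjusted p under 0.05 and 1 called lower by DESeq2. Smad3 had 189.6 and 160.3 CPM with vehicle, 369 and 312 CPM after 2 h and 201 and 208 CPM after 12 h, a log2FC of -0.73 (adjusted p = 0.00676) back toward the vehicle level that did not pass the fold threshold. Of 10 tested ligands of the family 2 were called higher and 0 lower (1 at an unadjusted p under 0.05). Inhba, the activin A subunit, started late, with 2.68 and 3.43 CPM at 2 h and 34.2 and 39.6 CPM at 12 h (log2FC 3.59, SE 0.23, adjusted p = 0.000254), and Bmp1, a procollagen protease despite its name, had 154 and 178 CPM at 2 h and 437 and 483 CPM at 12 h.

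Id genes, which encode inhibitors of basic helix-loop-helix factors and are targets of the BMP branch, were called lower at 12 h in 2 of 3 and higher in 0, also at an unadjusted p under 0.05. Id2 had 367 and 208 CPM with vehicle, 124 and 58.03 CPM after 2 h and 21.8 and 23.7 CPM after 12 h and was called in both steps, with replicate 1 above replicate 2 with vehicle and at 2 h. Id1 had 85.04 and 70.7 CPM with vehicle, 76.54 and 88.9 CPM after 2 h and 22.49 and 20.9 CPM after 12 h, so that its decrease started after 2 h (log2FC -1.93, SE 0.14, adjusted p = 0.000356). Id3 had 101 and 79.9 CPM with vehicle, 42.2 and 44.1 CPM after 2 h and 20.2 and 23.4 CPM after 12 h, with a second step of -0.99 that missed the fold threshold by 0.01.

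Of 16 tested immediate-early genes outside AP-1, 5 had been called higher and 1 lower at 2 h against vehicle. At 12 h against 2 h, 5 were called higher (31.3%) and 0 lower (3 at an unadjusted p under 0.05). Egr1, a zinc finger factor of the serum response, had 4.299 and 2.74 CPM with vehicle, 2.58 and 2.67 CPM after 2 h and 12.4 and 10.3 CPM after 12 h, and Ier3 25.7 and 22.8 CPM with vehicle, 24.7 and 14.3 CPM after 2 h and 90.7 and 81.9 CPM after 12 h. In both, vehicle and 2 h libraries overlapped or lay side by side and the 12 h libraries stood above them (log2FC 2.11, SE 0.27, adjusted p = 0.00191 and log2FC 2.15, SE 0.25, adjusted p = 0.0014). Of 16 tested feedback inhibitors of MAP kinase signaling, 7 had been called higher and 2 lower at 2 h against vehicle. At 12 h against 2 h, 7 were called higher (43.8%) and 0 lower, also at an unadjusted p under 0.05, with a median log2FC of 0.55. Dusp7, an ERK phosphatase, had 8.86 and 13.2 CPM at 2 h and 43.4 and 44.6 CPM at 12 h (log2FC 2.00), Dusp5 3.898 and 4.49 CPM at 2 h and 11.8 and 13.9 CPM at 12 h, and 2 others, Errfi1 and Spry1, were genes that fell and came back. Hbegf, an EGF receptor ligand, had 20.45 and 24.7 CPM at 2 h and 72.1 and 78.3 CPM at 12 h (log2FC 1.74), and was the 1 of 9 EGF family genes called higher. Lif, a cytokine, had 11.49 and 16.6 CPM at 2 h and 54.00 and 63.6 CPM at 12 h (log2FC 2.07). Without replicate 1 at 12 h, 2 immediate-early and 4 feedback genes were called higher, and without replicate 2 at 12 h, 3 immediate-early genes.

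Myc, which drives growth and ribosome production in many cells, rose from 16.2 and 18.47 CPM to 59.7 and 65.9 CPM (log2FC 1.85, SE 0.24, adjusted p = 0.00205). Ribosome biogenesis factors, which make and assemble ribosomal subunits in the nucleolus, rose in 10 of 38 genes (26.3%), and 36 of the 38 had a log2FC above 0, with a median of 0.82 and a range from -0.21 to 1.30. None of the 10 was called at 2 h, and the median CPM of the list was 55.7 and 54.3 with vehicle, 55.2 and 57.7 at 2 h and 97.7 and 106 at 12 h. Tsr1 had 62.8 and 55.4 CPM at 2 h and 141 and 149 CPM at 12 h and Grwd1 28.9 and 32.9 CPM at 2 h and 70.4 and 77.6 CPM at 12 h, with replicates close together (log2FC 1.30, SE 0.11, and 1.26, SE 0.12). Ncl, nucleolin, had 103 and 138 CPM at 2 h and 128 and 179 CPM at 12 h and was not called. Of 73 cytosolic ribosomal protein genes 0 were called, with a median log2FC of 0.03, and 7 were higher and 4 lower at an unadjusted p under 0.05. With replicate 2 of the 12 h group left out, 6 biogenesis factors were called.

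**Figure D3:**
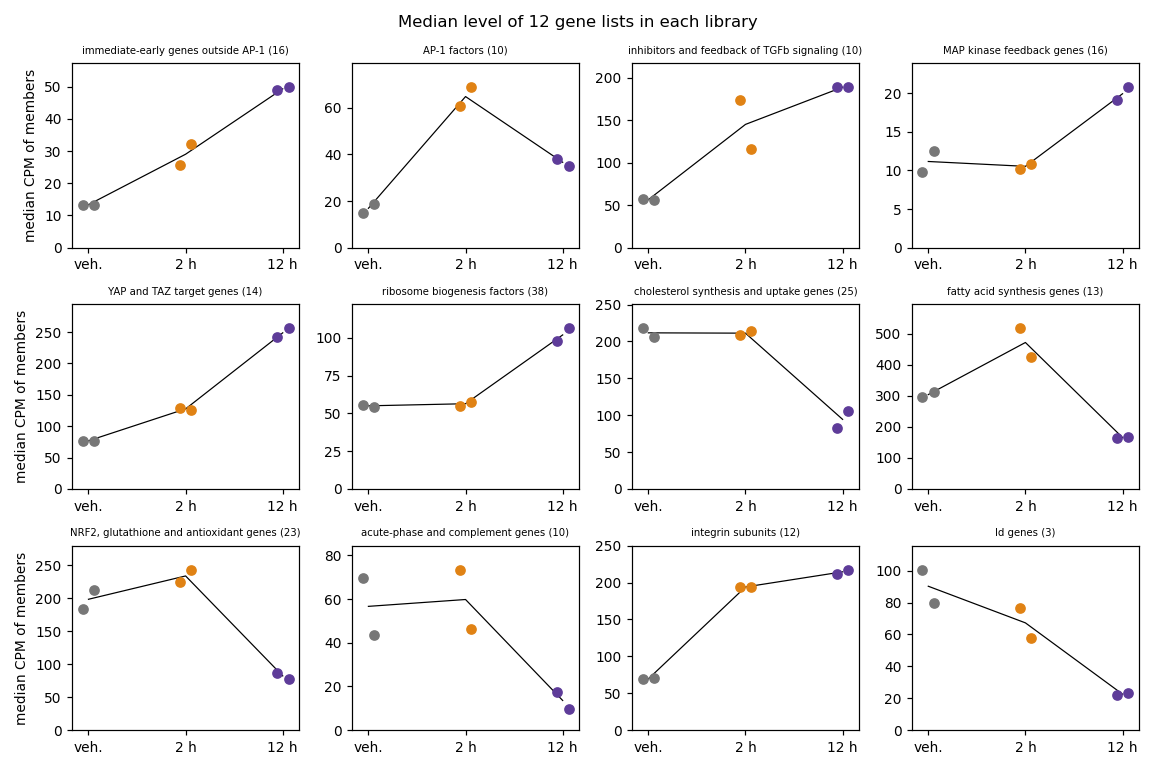
Median CPM over the tested members of 12 gene lists in each library (y axis from 0), for vehicle, TGFβ 2 h and TGFβ 12 h, with the mean of 2 libraries joined by a line. The AP-1 median rises by 2 h and lies lower at 12 h than at 2 h. The medians of ribosome biogenesis factors and MAP kinase feedback genes lie higher at 12 h than at 2 h. The lipid, NRF2 and acute-phase lists lie lower at 12 h than at 2 h.

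Of the tested genes 46 rose and faded, and 92 did without replicate 1 at 2 h. Wnt4 (22417, chr4:136833404-136855641), a Wnt ligand of mammary branching, had 6.83 and 9.43 CPM with vehicle, 14.2 and 21.04 CPM after 2 h and 0.174 and 0.308 CPM after 12 h. It was higher in both 2 h libraries than with vehicle and nearly absent at 12 h (log2FC -6.18, SE 0.40, adjusted p = 0.000254). Tlr2, a receptor for bacterial lipopeptides, had 8.77 and 7.33 CPM with vehicle, 35.2 and 28.01 CPM after 2 h and 4.58 and 6.22 CPM after 12 h, and Cx3cl1, fractalkine, 11.7 and 8.54 CPM with vehicle, 26.7 and 18.7 CPM after 2 h and 3.62 and 2.57 CPM after 12 h. Eya2, a phosphatase and transcriptional co-factor, had 44.6 and 48.7 CPM with vehicle, 125 and 134 CPM after 2 h and 20.3 and 21.4 CPM after 12 h, with the closest replicates of the 5 genes named (SE 0.11 on a log2FC of -2.64). Hcar2, a receptor for nicotinic acid and ketone bodies, went from 12.96 and 7.82 CPM to 0.436 and 0.565 CPM. Against vehicle at 12 h, 5 of the 46 genes were still called higher, 9 were called lower and 32 were not called. Bag3, a co-chaperone, and Atp6v0c, a proton pump subunit, also faded (log2FC -1.07 and -1.06), as did Krt6a, a keratin of activated epithelium, at 2.63 and 3.08 CPM and 0.174 and 0.257 CPM.

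The reverse course, a fall with recovery, was found in 32 genes, of which 31 were not called against vehicle at 12 h and 1 was called below it. Plk2 (20620, chr13:111185252-111191052), a stress-responsive polo-like kinase, had 149.9 and 120.0 CPM with vehicle, 60.3 and 46.2 CPM after 2 h and 216 and 228 CPM after 12 h (log2FC 2.06, SE 0.17, adjusted p = 0.000509). Hes1, a repressor downstream of Notch, had 66.1 and 59.98 CPM with vehicle, 13.9 and 34.1 CPM after 2 h and 89.8 and 79.9 CPM after 12 h, with 2 h replicates further apart than the others and an adjusted p of 0.0105. Txnip, an inhibitor of thioredoxin and of glucose uptake, had 81.9 and 101 CPM with vehicle, 20.7 and 27.4 CPM after 2 h and 93.7 and 62.52 CPM after 12 h. Irs1 and Irs2, adaptors of the insulin receptor, had the same course (log2FC -1.84 then 1.01, and -1.04 then 1.16). Both were chosen after their values were seen. Spry1, a MAP kinase pathway inhibitor, recovered in part, with 23.03 and 17.53 CPM with vehicle, 1.72 and 2.47 CPM after 2 h and 6.97 and 4.93 CPM after 12 h, and remained below vehicle at 12 h (adjusted p = 0.00235).

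All 53 tested mitosis genes were called lower at 12 h than at 2 h, against 9.87% of all genes, with a median log2FC of -4.78 and a range from -6.55 to -1.74. None of them had been called at 2 h against vehicle, where their median log2FC was -0.07. The median CPM of these genes was 32.2 and 74.6 with vehicle, 34.8 and 68.2 at 2 h and 2.44 and 2.57 at 12 h. In bulk RNA, fewer cells in mitosis and less of each transcript per cell cannot be told apart. Ndc80 (67052, chr17:71845440-71876197), which couples kinetochores to microtubules, had 20.4 and 46.1 CPM with vehicle, 20.96 and 37.7 CPM after 2 h and 0.218 and 0.411 CPM after 12 h (log2FC -6.55, SE 0.65, adjusted p = 0.000878). Nusap1, a spindle protein (chr2:119444034-119476980), had 42.8 and 80.1 CPM with vehicle, 36.55 and 64.9 CPM after 2 h and 0.392 and 0.822 CPM after 12 h. Plk1, the main polo-like kinase of mitosis, had 25.1 and 59.2 CPM with vehicle, 35.03 and 69.9 CPM after 2 h and 0.654 and 0.771 CPM after 12 h (log2FC -6.20, SE 0.64, adjusted p = 0.000938). In all 3 replicate 2 stood above replicate 1 with vehicle and at 2 h, and both 12 h libraries stood far below all 4 others. No mitosis gene was higher at an unadjusted p under 0.05. The count stayed at 53 without either 2 h library, and was 49 and 48 without replicates 1 and 2 of the 12 h group.

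Most promoters of these genes held a short sequence that the list was not chosen by. The cell-cycle genes homology region (CHR), TTTGAA on either strand, is the element through which the DREAM and MuvB complexes are known to act on late cell-cycle genes. It was searched in RefSeq windows of GRCm38.p6 that run from 250 bases before to 50 bases after the most upstream start, which were given for 44 of the 53 mitosis genes and for 8918 of the 11080 tested genes. It was present in 35 of the 44 windows (79.5%) and in 11.7% of all windows. In 31 of the 35 it lay within 50 bases of the start, as it did in 276 of the 1044 windows with a match among all tested genes. In the other late-falling genes, outside the mitosis list, it was present in 19.6% of 744 windows, and in the late-rising genes in 8.94% of 302. The 9 mitosis genes without a match in the window fell as well, with a median log2FC of -5.89 against -4.45 in the 35 with one. The stretches below are those of the 6 mitosis genes of largest decrease with a match in the 50 bases before the start, written 5′ to 3′ on the gene's strand up to the start at most, with the CHR or its reverse complement in capitals.
Ncapg (chr5:45669865-45669924, plus strand): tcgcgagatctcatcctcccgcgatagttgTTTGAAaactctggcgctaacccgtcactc
Cdc20 (chr4:118437344-118437391, minus strand): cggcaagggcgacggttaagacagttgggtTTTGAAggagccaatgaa
Espl1 (chr15:102296236-102296292, plus strand): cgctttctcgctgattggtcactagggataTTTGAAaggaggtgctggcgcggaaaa
Kif11 (chr19:37376333-37376381, plus strand): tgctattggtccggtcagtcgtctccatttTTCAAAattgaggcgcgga
Top2a (chr11:99024190-99024242, minus strand): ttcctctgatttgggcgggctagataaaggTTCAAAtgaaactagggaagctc
Kif15 (chr9:122951032-122951080, plus strand): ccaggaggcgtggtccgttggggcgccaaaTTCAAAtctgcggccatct
These genes act in turn in chromosome condensation (Ncapg), anaphase onset (Cdc20 and Espl1, separase), spindle assembly (Kif11 and Kif15, kinesins) and DNA decatenation (Top2a), and their log2FC at 12 h against 2 h lay between -5.54 and -4.36. A match of these letters is a description and does not show that a factor binds there.

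**Figure D4:**
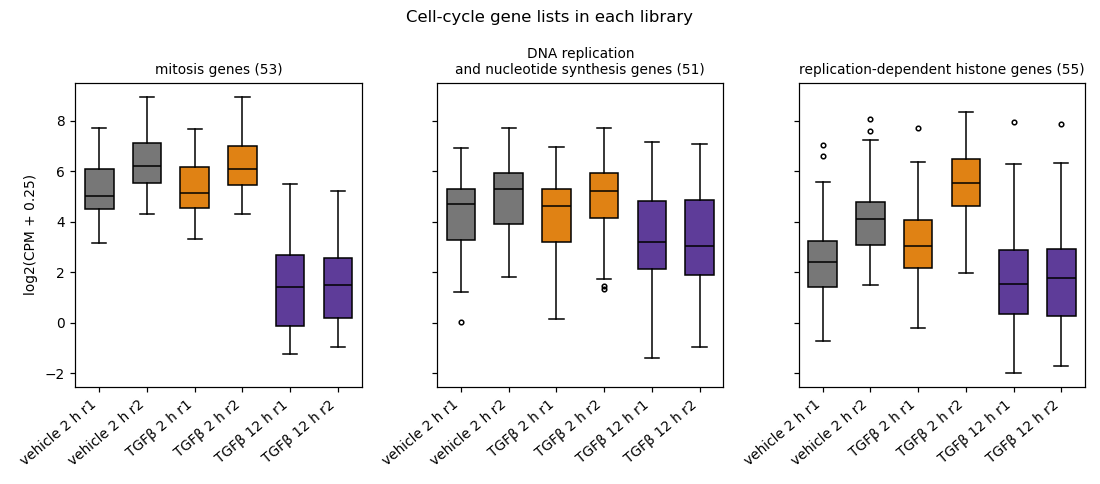
Box plots of log2(CPM + 0.25) over the tested members of 3 cell-cycle gene lists in each of the 6 libraries (r1 and r2, replicates; box, quartiles; line, median; whiskers, 1.5 times the box; circles, genes beyond). In each list the boxes of the 12 h libraries lie lowest, and replicate 2 lies above replicate 1 with vehicle and at 2 h, most of all for histone genes at 2 h.

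DNA replication and nucleotide synthesis genes fell in 25 of 51 (49%) with 0 higher, also at an unadjusted p under 0.05, and a median log2FC of -1.001. The median CPM of these genes was 25.6 and 38.8 with vehicle, 24.4 and 37.3 at 2 h and 8.94 and 8.01 at 12 h, with replicate 2 above replicate 1 in 50 of 51 genes both with vehicle and at 2 h. Tk1, thymidine kinase, had 11.54 and 37.3 CPM at 2 h and 0.654 and 0.771 CPM at 12 h (log2FC -5.09, SE 0.77, adjusted p = 0.00362). Mcm5, a subunit of the replicative helicase, had 50.8 and 121 CPM at 2 h and 4.23 and 3.699 CPM at 12 h, and E2f7, an atypical repressor of the E2F family, 3.29 and 6.51 CPM at 2 h and 0.131 and 0.257 CPM at 12 h. An E2F sequence (TTTCGCGC, TTTGGCGC or TTTCCCGC on either strand) was present in 14 of the 42 windows given for these genes (33.3%) and in 4.05% of all windows. Of the 14 genes with it 7 were called lower, and their median log2FC was -1.09, against -1.02 in the 28 without it. Without replicate 1 or 2 at 12 h, 11 of the list were called lower. DNA repair and checkpoint genes fell in 14 of 32 (43.8%) and rose in 0 (2 at an unadjusted p under 0.05), with Fancd2 of the Fanconi anaemia pathway at 17.4 and 31.9 CPM at 2 h and 0.654 and 0.616 CPM at 12 h, and 9 and 6 of the list were called lower without replicates 1 and 2 at 12 h.

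Replication-dependent histone genes, whose messages are not polyadenylated and are captured by sequencing of total RNA, fell in 32 of 55 tested genes (58.2%), with 0 higher also at an unadjusted p under 0.05, but the count of lower calls rested on single libraries. Their median CPM was 5.06 and 16.9 with vehicle, 7.998 and 46.48 at 2 h and 2.66 and 3.19 at 12 h, so that replicate 2 at 2 h stood far above the other 5 libraries. The number called lower was 12 without that library, 51 without replicate 1 at 2 h, 1 and 0 without replicates 1 and 2 at 12 h, and 6 with limma-voom. The median log2FC was -2.95 with all libraries and -1.11 without replicate 2 at 2 h. Many of these genes have near-identical copies between which uniquely mapped reads are divided, so that values of single members are uncertain.

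Among regulators of the cycle, Cdkn2b, the CDK4 and CDK6 inhibitor p15 and a known TGFβ target, went from 59.48 and 42.01 CPM with vehicle through 113 and 89.98 CPM to 219.7 and 206 CPM (log2FC 1.00 with no call, then 1.07). Ccnd1, cyclin D1, had 825 and 753 CPM with vehicle, 613 and 482 CPM after 2 h and 563 and 540.0 CPM after 12 h, with no change called. Cdc25b and Cdc25c, the phosphatases that start mitosis, fell with the mitosis genes (log2FC -3.49 and -6.06). The 4 cell-cycle lists held 191 different tested genes, of which 124 were called lower, 11.3% of all genes called lower, and the remaining 970 lie outside them.

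Genes of lipid synthesis were lower at 12 h. Of 25 tested cholesterol synthesis and uptake genes 17 were called lower (68.0%) and 0 higher, also at an unadjusted p under 0.05, and all 25 had a log2FC below 0, with a median of -1.19. Their median CPM was 218 and 206 with vehicle, 208 and 214 at 2 h and 82.2 and 106 at 12 h, so that the change fell after 2 h. Lss, lanosterol synthase, had 379 and 356 CPM at 2 h and 68.6 and 106 CPM at 12 h (log2FC -2.07, SE 0.21, adjusted p = 0.000888), with both 12 h libraries far below both 2 h libraries. Of 13 fatty acid synthesis genes 8 were called lower (61.5%) and 0 higher, also at an unadjusted p under 0.05. Scd1, the stearoyl-CoA desaturase, had 521 and 427 CPM at 2 h and 122 and 117 CPM at 12 h (log2FC -1.99, SE 0.13, adjusted p = 0.000242), and Acss2, which activates acetate, 26.02 and 36.7 CPM at 2 h and 4.84 and 8.37 CPM at 12 h. Without replicate 1 at 12 h, 11 cholesterol genes were called lower.

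In a mixed list of NRF2, glutathione and antioxidant genes, 12 of 23 tested members were called lower (52.2%) and 0 higher, also at an unadjusted p under 0.05. Gclc, the catalytic subunit that limits glutathione synthesis, had 554 and 470.3 CPM with vehicle, 278 and 272 CPM after 2 h and 35.1 and 38.4 CPM after 12 h (log2FC -2.90, SE 0.13, adjusted p = 9.48e-05). Gsta4, a glutathione transferase, had 365 and 411 CPM at 2 h and 50.6 and 48.2 CPM at 12 h, and Aldh3a1, an aldehyde dehydrogenase, 47.8 and 53.2 CPM at 2 h and 1.61 and 1.54 CPM at 12 h. The 2 replicates of each differed far less than the groups. Hmox1, heme oxygenase, had 63.7 and 68.7 CPM with vehicle, 109 and 97.9 CPM after 2 h and 45.2 and 46.49 CPM after 12 h, and its level at 12 h was below both the 2 h and the vehicle libraries.

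Immune and acute-phase genes were called lower more often than higher. Of 10 acute-phase and complement genes 6 were called lower (60%) and 1 higher (10%), against 9.87% and 4.5% of all tested genes. Hp, haptoglobin, had 34.7 and 20.53 CPM with vehicle, 26.52 and 11.9 CPM after 2 h and 0.262 and 0.103 CPM after 12 h (log2FC -6.63, SE 0.67, adjusted p = 0.0009). C3, the central complement component, had 507 and 326 CPM with vehicle, 502 and 265 CPM after 2 h and 63.1 and 45.7 CPM after 12 h. Saa3, serum amyloid A, had no count in either 12 h library and was at least 16.9-fold lower than at 2 h, computed against 3 counts per library. In these 3 genes replicate 1 was above replicate 2 with vehicle and at 2 h. Interferon-stimulated genes were called lower in 9 of 24 tested members (37.5%) and higher in 1 (4.17%), the latter near the share of all tested genes. A further 26 of the list did not pass the filter. Mx1, an antiviral GTPase, had 69.9 and 26.01 CPM with vehicle, 31.49 and 12.2 CPM after 2 h and 0.872 and 0.616 CPM after 12 h. The interferon response sequence GAAANNGAAA was present in 7 of the 18 promoter windows given for this list (38.9%) and in 2.65% of all windows. It was also present in 3 of the 7 windows of antigen presentation genes (42.9%), of which 0 of 9 tested were called. With replicate 1 at 12 h left out, 4 interferon genes were called lower, and with either 12 h library left out, 3 acute-phase genes were called lower and the higher call was lost. Of the chemokines and cytokines 3 of 16 were called higher and 5 lower, the latter 2 and 3 without replicates 1 and 2 at 12 h. Cxcl5 (20311, chr5:91188325-91190651), a neutrophil chemokine, went on falling through 401 and 157 CPM with vehicle, 39.6 and 14.6 CPM after 2 h and 2.14 and 1.798 CPM after 12 h (log2FC -3.77, SE 0.70, adjusted p = 0.00769), and Il33, an alarmin, had 14.6 and 15.04 CPM at 2 h and 1.05 and 1.13 CPM at 12 h.

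Among genes with at least 10 CPM at 2 h, the largest single decreases outside the cell cycle were in genes of mixed function. Sptssb, a subunit of serine palmitoyltransferase, which starts sphingolipid synthesis, had 91.4 and 45.2 CPM at 2 h and 0.479 and 0.257 CPM at 12 h (log2FC -7.48, SE 0.63, adjusted p = 0.000532). Dio3, the deiodinase that inactivates thyroid hormone, had 22.2 and 13.4 CPM at 2 h and 0 and 0.205 CPM at 12 h, with 0 counts in replicate 1 at 12 h. Angpt1, a ligand of the endothelial receptor Tie2, had 40.1 and 21.1 CPM at 2 h and 0.131 and 0.462 CPM at 12 h. In these 3 genes replicate 1 at 2 h was above replicate 2, and both 12 h libraries were far below either. The small membrane protein gene Smim6 had 24.96 and 23.1 CPM at 2 h and 0.174 and 0.462 CPM at 12 h, with a narrower spread (SE 0.31). Among genes that went on falling, Aspa, which splits N-acetylaspartate, had 36.7 and 41.9 CPM with vehicle, 20.45 and 15.1 CPM after 2 h and 0.959 and 1.03 CPM after 12 h, Neurl1b, a ubiquitin ligase of Notch ligands, 320.1 and 368 CPM with vehicle, 74.6 and 94.9 CPM after 2 h and 9.07 and 14.1 CPM after 12 h, and Gas2l3, a cytoskeletal linker, 62.96 and 73.4 CPM with vehicle, 27.6 and 33.6 CPM after 2 h and 2.79 and 3.03 CPM after 12 h.

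Genes of amino acid and sugar metabolism were called in both directions. Psat1, of serine synthesis, fell from 377 and 394 CPM to 52.9 and 65.7 CPM (log2FC -2.70, SE 0.14, adjusted p = 0.000162), one of 7 of 33 tRNA synthetase and ATF4-dependent amino acid genes called lower (21.2%), with 0 called higher and 5 higher at an unadjusted p under 0.05, while Asns, asparagine synthetase, was not called (log2FC -0.38). Ass1, argininosuccinate synthase of the urea cycle and arginine synthesis, rose from 0.405 and 1.01 CPM to 17.96 and 20.9 CPM, and Gm5424, a near-identical copy of it, from 0.202 and 0.908 CPM to 21.3 and 30.4 CPM. Reads shared by these 2 loci may have been divided between them, so that their separate values are uncertain. Of 21 glycolysis genes 5 were called lower (23.8%) and 2 higher (9.52%), and at an adjusted p under 0.05 and any fold 13 were lower and 2 higher. Their median log2FC was -0.79, with 17 of 21 below 0. Without replicate 1 at 12 h, 3 were called lower, and 1 was called higher without either 12 h library or replicate 1 at 2 h. Among those called were Pfkm, muscle-type phosphofructokinase, falling by 1.43 and Pfkfb4, a regulator of the same step, rising by 1.75 on the log2 scale. Of 16 genes of the insulin and IGF axis 5 were called higher and 2 lower, with 1 lower without any 1 of the vehicle and 12 h libraries. Igfbp3 and Igfbp7, binding proteins of insulin-like growth factors, rose late, with 19.1 and 16.2 CPM at 2 h and 107 and 104 CPM at 12 h for the former and 541 and 462 CPM at 2 h and 1654 and 1571 CPM at 12 h for the latter. Among 162 solute carrier genes 28 were called lower (17.3%) and 12 higher (7.41%), with 5 and 4 higher without replicates 1 and 2 at 12 h, and 170 were below the filter. The phosphate transporter Slc17a1 and the amino acid transporter Slc6a19 had the largest decreases among those with at least 2 CPM (log2FC -3.98 and -3.41).

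Several large groups had no call. Of 33 proteasome subunit genes 0 were called, with a median log2FC of 0.09, and 1 was higher and 0 lower at an unadjusted p under 0.05. Respiratory chain and ATP synthase genes had 0 of 69 calls but 63 of 69 with a log2FC below 0 and a median of -0.39, and 40 were lower and 1 higher at an unadjusted p under 0.05. Without replicate 1 at 2 h, 5 of the 69 were called lower, and 1 without replicate 2 at 2 h or at 12 h. Of 9 antigen presentation genes 0 were called, with 2 higher and 3 lower at an unadjusted p under 0.05.

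Of 36 semaphorin, plexin and ephrin guidance genes 5 were called higher (13.9%) and 9 lower (25%), with 3 higher without either 12 h library and 4 lower without replicate 1 at 12 h, Sema4f rising by 2.98 and Sema3e changing by -2.30 on the log2 scale. Among 16 Wnt genes 2 were called higher (12.5%) and 3 lower (18.8%), and the higher calls were lost without either 12 h library. Wnt9a had 0.118 and 0.382 CPM with vehicle, 0.253 and 0.959 CPM after 2 h and 6.54 and 7.86 CPM after 12 h and so ran opposite to Wnt4, and Wnt7a also rose (log2FC 1.81). Of 9 EGF family ligands and receptors Hbegf was called higher and Btc lower (log2FC -1.69), a call lost without replicate 1 at 2 h or either 12 h library, and without replicate 2 at 2 h, 2 were higher and 3 lower. Of 15 NF-kB genes 2 were called lower (13.3%), the inhibitor Nfkbia (log2FC -1.25) and Bcl3 (-2.08), and 0 higher, also at an unadjusted p under 0.05. Of 23 endoplasmic reticulum chaperone and unfolded protein genes 1 was called lower (4.35%, Herpud1, -1.72) and 0 higher (10 at an unadjusted p under 0.05). Of 18 heat shock genes 1 was called lower (5.56%, Bag3) and 0 higher (7 at an unadjusted p under 0.05). Of 48 lysosome and proton pump genes 6 were called lower (12.5%) and 0 higher (4 at an unadjusted p under 0.05), with 2 lower without replicate 1 at 12 h. Clock genes had 1 of 17 called higher, the repressor Nr1d1 with 2.94 and 4.996 CPM at 2 h and 14.51 and 12.53 CPM at 12 h, and 2 lower, with 1 lower without either 12 h library. Of 17 p53 targets 2 were called higher (11.8%) and 1 lower (5.88%), against 4.5% and 9.87% of all tested genes. Of 13 BCL2 family genes 1 was called higher (7.69%, Bcl2, 1.12) and 1 lower (7.69%, Bid, -1.06). Of 12 glycogen genes 1 was called higher (8.33%) and 2 lower (16.7%). Of 12 polarity genes 1 was called lower (8.33%, Llgl2, -1.23) and 0 higher (4 at an unadjusted p under 0.05). Tmprss2 (-2.74) was the 1 of 2 surface protease genes called lower. The lower p53 target was lost without replicate 1 at 2 h or either 12 h library, the higher BCL2 family call without replicate 1 at 12 h, the higher glycogen call without replicate 2 at 2 h or at 12 h, and Bag3 without replicate 1 at 2 h.

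**Figure D5:**
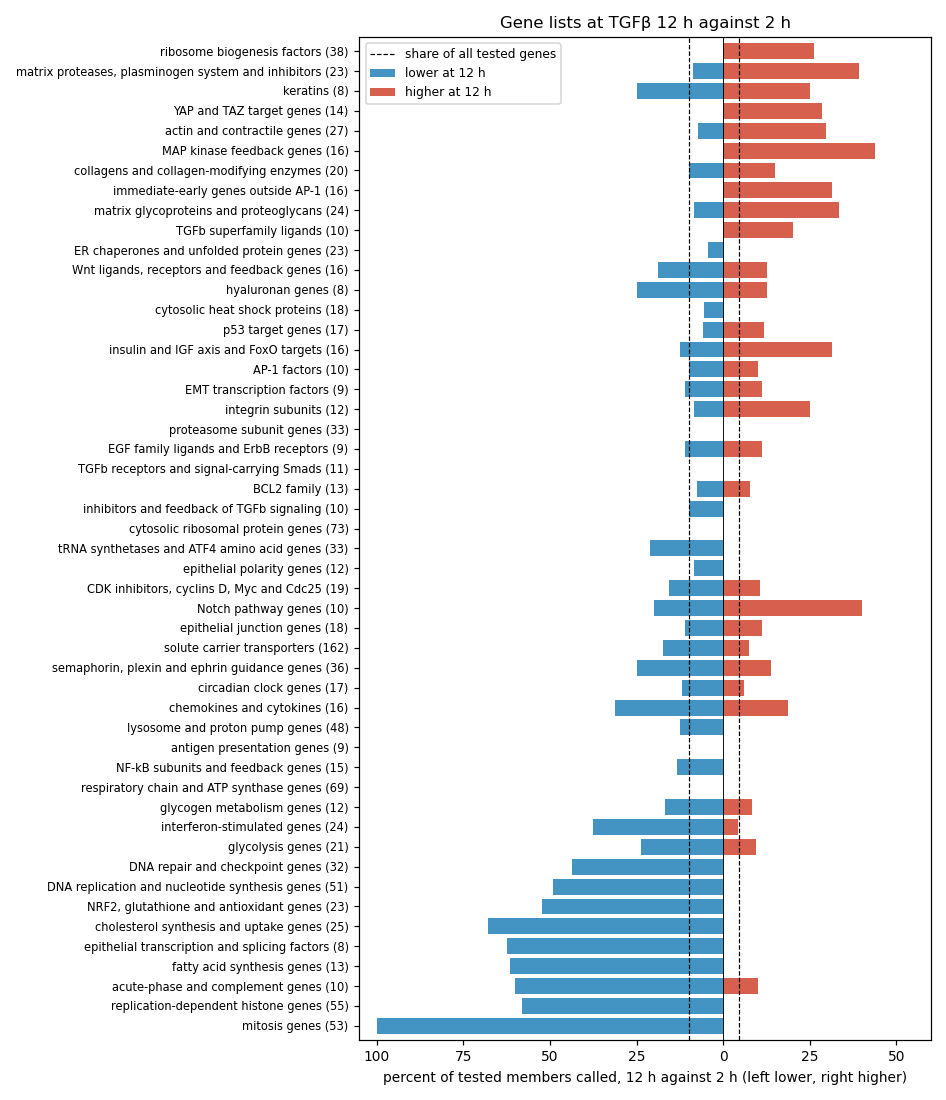
Percent of the tested members of each gene list (number in parentheses, lists with at least 8 tested members) called lower (left) or higher (right) at TGFβ 12 h against 2 h, ordered by median log2FC. Dashed lines mark the share of all tested genes, 9.87% lower and 4.5% higher. Mitosis genes reach 100% on the left, and MAP kinase feedback genes (43.8%) extend furthest to the right.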

How the data were processed

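RNA of NMuMG cells was sequenced as stranded total RNA in 6 libraries, 2 each for vehicle, TGFβ1 for 2 h and TGFβ1 for 12 h. The authors deposited raw read counts per gene. Per the study's methods and the labels, reads were aligned to mm9 with subjunc, duplicates were removed with SAMtools 0.1.19, unique reads were counted over exons by strand with featureCounts, and miRNAs were left out. Removal of duplicates caps the counts of short, abundant transcripts, and counting unique reads lowers those of near-identical genes.

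From these counts, the genes reaching 2 CPM in 2 or more of the 6 libraries were tested in 1 fit of the 3 groups with edgeR 4.0.16 (R 4.3.3; TMM scaling, quasi-likelihood F test, Benjamini-Hochberg adjustment over all tested genes). Calls required an absolute log2FC above 1 together with an adjusted p under 0.05. CPM are TMM-scaled, and the SE is the absolute log2FC divided by the square root of F. Replicate error is given as the values of both libraries, and with totals of 14705886 to 23786993 counts, 3 counts were the floor for bounds on folds. Alternatives were limma-voom (limma 3.58.1), DESeq2 1.42.0, its size factors in edgeR, total-count scaling, no filter, a minimum of 10 counts in each library, a replicate block, only the 2 groups compared, adjusted p alone and leaving out each library. The fits were tested on simulated data. Promoter windows and gene positions were read with Python 3.11.15 and pandas 2.3.3, promoters from RefSeq (GRCm38.p6) and positions from GENCODE vM1 on NCBIM37. No coordinates were moved between builds.

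Named genes were the 12 called genes of largest absolute log2FC in each direction and the 5 of each timing class (at least 10 CPM on average in the higher group, groups apart), the 4 called members of each list by the same measure (at least 2 CPM in the higher group) and preset members of lists. Genes outside this rule are marked as chosen after their values were seen, and the 6 promoters printed follow the rule stated beside them. The gene lists and the comparison were chosen with earlier results of these data known. Some named genes are not reported here. No library was left out.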

Additional observations from a re-analysis of the deposited data

How the results depend on the processing

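The numbers of genes called at 12 h against 2 h lay between 1382 and 1685 with all libraries and both thresholds in the alternatives that kept the filter or asked for at least 10 counts in every library, and the share of calls that were higher lay between 29.6% and 33.2%; without a filter 1918 genes were called. With an adjusted p alone and no fold threshold, 1682 genes were higher and 2093 lower, 264 went on rising, 240 rose and faded, 1255 rose after 2 h without a call before, 122 went on falling, 163 fell and came back and 1731 fell after 2 h without a call before. In the fit of the 2 groups compared, 53 genes went on rising and 25 went on falling, and with at least 10 counts in every library 27 went on falling; in the former each contrast was fitted on 4 libraries, and for the latter genes near 0 at 12 h were not tested. Leaving out each library in turn gave 315 to 552 higher and 783 to 1141 lower genes, 45 to 86 that went on rising, 34 to 92 that rose and faded, 246 to 433 that rose late, 16 to 75 that went on falling, 13 to 74 that fell and came back and 732 to 1013 that fell late, and the lowest counts of higher and lower genes came without a 12 h library. Replicate numbers did not pair the samples by the labels. Deviations of same-numbered libraries correlated at 0.708 (vehicle with 2 h), 0.263 (vehicle with 12 h) and 0.392 (2 h with 12 h), and with a replicate block 1685 genes were called, 84 of them rising and fading against 46 without it. Scaling by total counts moved the median log2FC of all genes at 2 h against vehicle from -0.01 to -0.12. Medians of 4 lists with values near 0 changed sign without 1 library: transcription factors of the epithelial to mesenchymal transition to -0.00684 (without replicate 1 at 12 h, range to 0.315), integrins to -0.00627 (without replicate 2 at 2 h, range to 0.167), the CDK inhibitor and cyclin list to 0.056 (without replicate 1 at 2 h, range from -0.254), and epithelial markers to -0.038 (without replicate 1 at 12 h, range to 0.319) and also below 0 without replicate 2 at 2 h. Of 190 named genes that were called, 156 were called in the same direction under every alternative. With 2 libraries per group, a change near the fold threshold could not be placed on either side of it.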
